A study of Rattus norvegicus with 16 samples.

Results

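The genes described here build the lysosome and its proton pump, the vacuolar H+-ATPase. They were chosen by name: 23 genes whose symbol begins with Atp6v0 or Atp6v1, and 29 further genes listed one by one, together 52 of the 32623 genes in the deposited count table. By role they were 9 subunits of the pump's membrane part V0, 13 subunits of its ATP-splitting part V1, 2 pump accessory proteins, 8 proteases, 5 glycosidases, 4 genes of lipid breakdown, 7 membrane and cholesterol transport proteins and 3 transcription factors. The name pattern also took in Atp6v1fnb, a gene named as a neighbour of Atp6v1f and not a subunit, which was counted apart.

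The study by Schulz et al. grew rat kidney cell lines in indirect co-culture: NRK-52E, an epithelial line derived from proximal tubule, on permeable filter inserts, and NRK-49F, a kidney fibroblast line, on the floor of the wells beneath. Both lines were first kept without serum for 24 h and then for 48 h in medium of pH 7.4 (control) or pH 6.0 (acidosis), written pH7 and pH6 in the sample titles. The lines were lysed separately, and polyadenylated RNA of 4 libraries per line and pH, 16 in all, was sequenced. All 4 groups therefore share the co-culture, the serum-free start and the length of the incubation, and cultures of either line alone were not analysed here. Each cell type is represented by 1 established cell line, and the labels do not say whether the 4 libraries of a group came from separate experiments. The p-values therefore measure only the spread between these libraries, which may be technical.

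The vacuolar proton pump is a rotary motor: V1, on the cytosolic side, splits ATP and turns a central stalk, and the turning ring of V0 carries protons into the lumen of lysosomes, endosomes and Golgi vesicles, or, in some kidney cells, across the plasma membrane. Soluble hydrolases need the acid lumen to degrade proteins, glycans and lipids, while the proteins of the lysosomal membrane shield the cell, export cholesterol and release calcium. The related factors Tfeb, Tfe3 and Mitf are known to move to the nucleus when lysosomes are stressed or nutrients are scarce and to bind a short element in the promoters of many of these genes.

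The libraries are named by their number in the column names, and values are always listed in the order N1, N2, N5, N6 (NRK-52E, pH 7.4), N3, N4, N7, N8 (NRK-52E, pH 6.0), N9, N10, N13, N14 (NRK-49F, pH 7.4) and N11, N12, N15, N16 (NRK-49F, pH 6.0). Where values or ranges of a line follow each other, those at pH 7.4 come first and those at pH 6.0 second, and where changes of both lines follow each other, NRK-52E comes first. Total counts ran from 17760185 to 20612657 and from 16844811 to 23856187 in the NRK-52E groups at pH 7.4 and 6.0, and from 17518187 to 27607214 and from 16201084 to 34784862 in the NRK-49F groups. Levels are given as FPM, counts per 1000000 counts of the TMM-scaled library, which is not corrected for gene length. Levels were therefore not compared between genes outside the marker lists. Within those lists, sums and the most abundant gene depend on gene length as well. A gene was called a DEG when its Benjamini-Hochberg adjusted p was below 0.01 in both edgeR and DESeq2, the rule of the study, and changes are log2 fold changes ± SE from edgeR with the adjusted p of edgeR, n = 4 libraries per group unless stated.

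N8 stood apart from its group: its median correlation with the other NRK-52E libraries at pH 6.0, over log2 FPM of genes above a mean of 1 FPM, was 0.974, against 0.986 or more for the libraries of every group apart from it. Counts of DEGs over all members are therefore given with and without N8, and so are some counts by role or list. The column names carry a second number, 21 or 22 in NRK-52E and 20 or 21 in NRK-49F, whose meaning is not stated. Each of these numbers held 2 libraries of either pH, so counts are also given within each number. Scaling by total counts in place of TMM moved the median log2 change of all genes by -0.21 for pH in NRK-52E, 0.04 for pH in NRK-49F, 0.31 and 0.15 for the cell line difference at pH 7.4 and 6.0, and -0.23 for the interaction. Changes are relative to the TMM scale, and fewer cells of a type and less RNA per cell cannot be told apart. Shares over all genes are given for all libraries on the TMM scale alone. Counts under total-count scaling, within a number or without a library have no such share beside them. They show only how the calls of members move.

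Cell type markers followed the labels in part. Of 10 epithelial markers, 4 exceeded a mean of 1 FPM in NRK-52E at pH 7.4 and 2 in each of the other groups, and Esrp1 was at 0 in every library. Their summed level had a median of 482 FPM in NRK-52E at pH 7.4, 320.4 FPM at pH 6.0, 833 FPM in NRK-49F at pH 7.4 and 205 FPM at pH 6.0, nearly all of it the keratin Krt8. Tight-junction Ocln averaged 41.2 ± 2.04 FPM (SD) in NRK-52E at pH 7.4 and 9.67 ± 1.05 FPM at pH 6.0, and it was at 0 in NRK-49F at pH 7.4. Cadherin Cdh1 averaged 1.62 ± 0.221 and 0.315 ± 0.157 FPM in NRK-52E. Of 8 proximal tubule markers, Slc34a1 and Hnf4a were at 0 in NRK-52E, and the most abundant was the water channel Aqp1 with 34.4 ± 7.64 FPM at pH 7.4 and 26.4 ± 3.95 FPM at pH 6.0 (no DEG). Anpep, a brush-border peptidase, fell there from 28.5 to 1.25 FPM on average (-4.55 ± 0.19), and in the fibroblasts from 30.1 to 10.9 FPM (-1.47 ± 0.22). Slc5a2 was lower as well (-3.44 and -3.04), on 0 to 4 counts per acid library in NRK-52E and 0 to 7 in NRK-49F. It passed the filter only through the controls, so these changes are description only. The most abundant of these 8 in NRK-49F was Ggt1, with 112 ± 19.8 and 413 ± 84.8 FPM, against 1.53 and 1.41 FPM in NRK-52E. The sum of the 8 was 142 to 560.4 FPM in the NRK-49F libraries, most of it Ggt1. Each of these sums lay above that of every NRK-52E library (24.9 to 74.9 FPM), against the labels. The medians of the summed list were 67.8 and 29.6 FPM in NRK-52E and 167 and 473 FPM in NRK-49F.

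The 10 fibroblast markers had summed medians of 6355 and 2820 FPM in NRK-52E and 7487 and 9127 FPM in NRK-49F, with every NRK-49F library (at least 6733 FPM) above every NRK-52E library (at most 6445 FPM). Collagen Col3a1 made up most of it in NRK-52E, with 6221 ± 95.0 FPM at pH 7.4 and 2630 ± 602 FPM at pH 6.0, and collagen Col1a1 in NRK-49F, with 6205 ± 409.7 and 8288 ± 922 FPM (log2 change 0.40, adjusted p 0.0103, no DEG). Other markers of this list were lower at pH 6.0 in NRK-49F, among them Col3a1 (-3.10 ± 0.29), Pdgfrb (-2.01 ± 0.21) and Lum (-2.06 ± 0.44). Pdgfra, a receptor of fibroblasts, at pH 7.4 reached 339 to 447 FPM in NRK-49F against 0.164 to 0.415 FPM in NRK-52E. Col1a1, Pdgfra, Lum, Postn and Twist1 were lower in NRK-52E than in NRK-49F at both pH values. Col3a1 went against the labels, with only 458 and 53.9 FPM on average in NRK-49F. Its log2 change of NRK-52E against NRK-49F was 3.85 ± 0.15 at pH 7.4 and 5.59 ± 0.35 at pH 6.0. Thy1 was at 0 in every library. Of 7 macrophage markers, Ptprc, Adgre1 and Tyrobp were at 0 in every library, and the most abundant was Cd14, with 81.2 ± 9.08 and 74.1 ± 18.1 FPM in NRK-52E and 279 ± 15.7 and 129 ± 5.94 FPM in NRK-49F. Csf1r, at 0.243 and 1.08 FPM in NRK-52E, held 5 to 6 counts per library at pH 7.4 and 20 to 26 at pH 6.0. It passed the filter there only through the acid libraries, so its change (2.1 ± 0.32) is given as description only. The summed macrophage list had medians of 79.1, 67.9, 275 and 129 FPM in the 4 groups in the same order. Some of these lists moved with pH, and their part in the results was not tested.

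The differences with pH were spread unevenly over the roles and lines. In NRK-52E the glycosidases were lower and several V0 subunits higher at pH 6.0, whereas in NRK-49F some proteases and lipid-degrading enzymes were higher. As a whole, however, the members were DEGs about as often as any gene. Of 49 members tested in NRK-52E, 13 were higher at pH 6.0, beside 28.2% of the 13735 genes tested, and 12 were lower, beside 28.5%. Without N8, 13 were higher and 15 lower. Their median log2 change was 0.05, and that of all genes tested was 0. Within number 21, 7 were higher and 8 lower, and within number 22, 6 were higher and 4 lower, and all 25 DEGs had the same sign within both numbers. Under scaling by total counts, 12 were higher and 16 lower.

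Of 48 members tested in NRK-49F, 12 were higher at pH 6.0, beside 18.4% of the 13339 genes tested, and 10 were lower, beside 19.4%. The lower members include Atp6v1g2, which passed the filter only through the controls and is counted as description. The median was 0.16 over the members and 0 over all genes. Within number 20, 13 were higher and 8 lower, and within number 21, 4 were higher and 3 lower, with the same sign as in all libraries for all 22 DEGs. Leaving out 1 library at a time gave from 9 to 15 higher and from 9 to 10 lower. Side by side, 2 members were higher in both lines (Atp6v0a2 and Smpd1) and 6 were lower in both (Atp6v1b1, Atp6v1c2, Atp6v1g2, Ctsa, Glb1 and Mcoln1). Opposite DEGs were Tpp1 and Neu1, lower in NRK-52E and higher in NRK-49F, and Atp6v1g1, the reverse. In NRK-52E alone 10 were higher and 4 lower, in NRK-49F alone 8 were higher and 3 lower, and 16 were DEGs in neither line, members that were not tested included. Of the 12470 genes tested in both lines, 9.46% were higher in both and 10% lower in both, while 2.23% were higher in NRK-52E but lower in NRK-49F and 2.05% the reverse. Further, 17.5% were higher and 15% lower in NRK-52E alone, and 7.16% and 6.46% in NRK-49F alone.

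**Figure D1:**
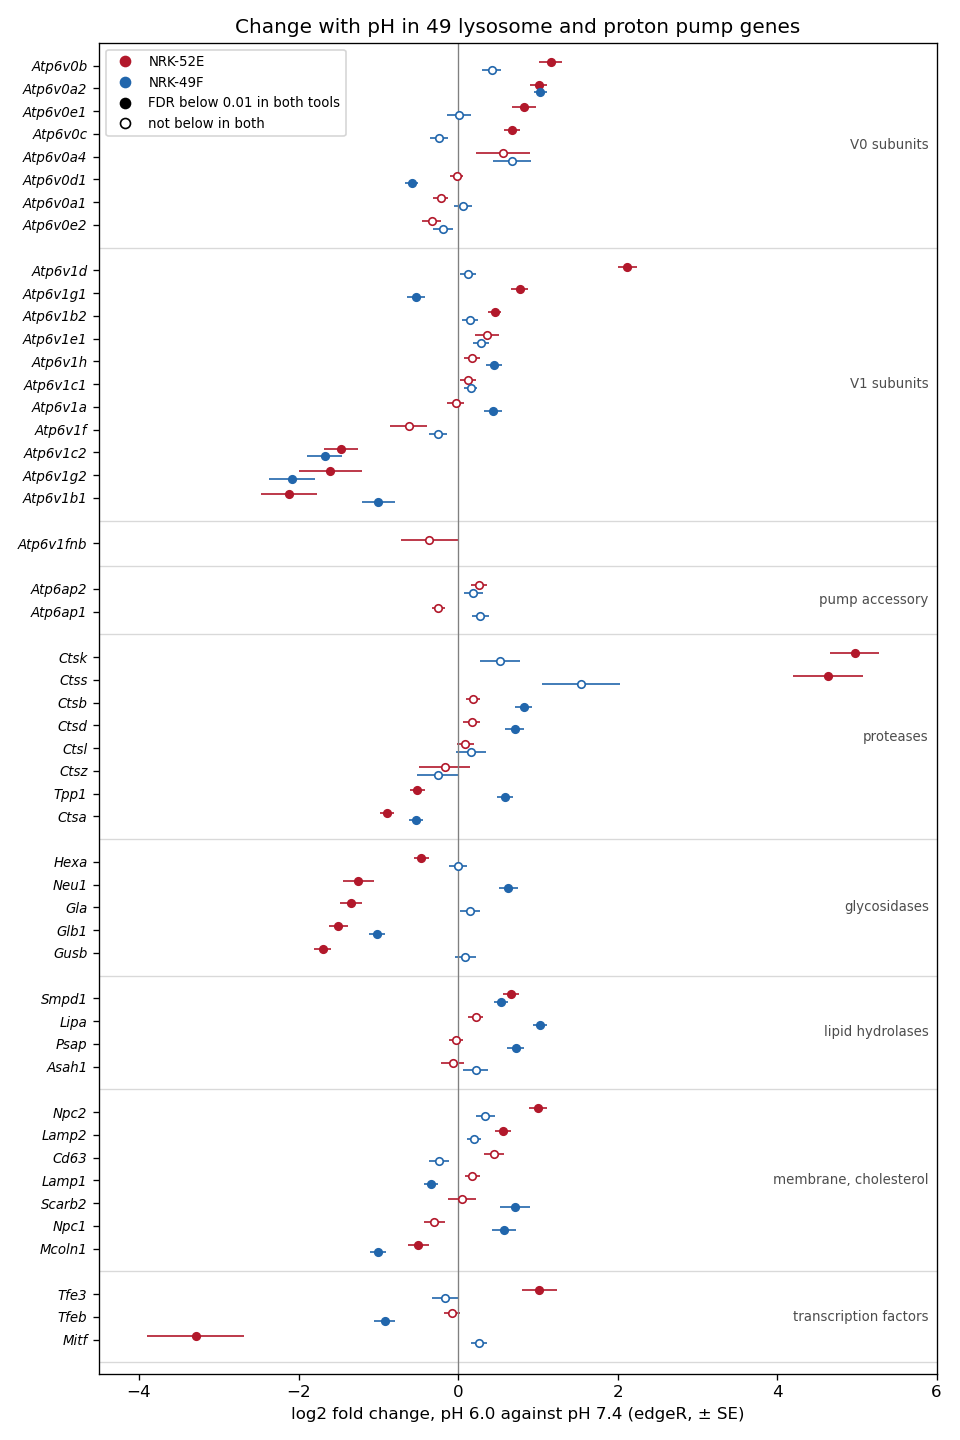
Log2 fold change ± SE at pH 6.0 against pH 7.4 (x axis) of each tested member (y axis), grouped by role, in NRK-52E (red) and NRK-49F (blue), 4 libraries per group, with filled points for adjusted p below 0.01 in both edgeR and DESeq2. The 5 glycosidases lie left of 0 in NRK-52E, from -0.46 to -1.70, and Ctsk lies farthest right, at 4.97.

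The V0 subunits anchor the pump in the membrane and carry the protons. In NRK-52E, 4 of the 8 tested were higher at pH 6.0, the other 4 were not DEGs, and the class median was 0.62. This count was 4 without N8 and 4 under scaling by total counts, where 2 others became lower, and it was 2 within each of the numbers 21 and 22. In NRK-49F, 1 was higher and 1 lower, with a median of 0.04.

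Atp6v0b, one of the ring proteins that bind protons, measured 88.4, 80.4, 68.0 and 81.3 FPM in NRK-52E at pH 7.4 and 231, 163, 163 and 162 FPM at pH 6.0. All libraries at pH 6.0 lay above all at pH 7.4, and N3 lay far above the rest (log2 change 1.16 ± 0.14, adjusted p 2.57e-05). NRK-49F libraries measured 94.4, 88.4, 129 and 104 FPM and 132, 133, 148 and 149.9 FPM, again without overlap, and the gene was no DEG (log2 change 0.42 ± 0.12, adjusted p 0.0104), but it was one without N13 (0.55, adjusted p 0.000421), within number 20 (0.53, adjusted p 0.000312) and under scaling by total counts or by DESeq2 size factors. The change was larger in NRK-52E by an interaction of 0.73 ± 0.19 (adjusted p 0.00354), which without N3 was 0.47 with adjusted p 0.0205.

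Atp6v0c forms most of the proton-carrying ring. It measured 329, 289.7, 300.4 and 304 FPM in NRK-52E at pH 7.4 and 529, 434, 474 and 541 FPM at pH 6.0, with no overlap between the groups (log2 change 0.68 ± 0.10, adjusted p 0.000138). Values in NRK-49F were 419, 416, 514 and 452 FPM at pH 7.4 and 341, 367, 423 and 412 FPM at pH 6.0. These groups overlapped, with the acid libraries in the lower range (log2 change -0.24 ± 0.11, adjusted p 0.0734, no DEG). The interaction was 0.90 ± 0.14 with adjusted p 5.51e-05, and it was the sole V0 interaction called higher under scaling by total counts.

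Atp6v0e1, a small membrane subunit, measured 73.9, 60.5, 58.9 and 72.7 FPM in NRK-52E at pH 7.4 and 128, 90.7, 113 and 147 FPM at pH 6.0, every acid library above every control library (log2 change 0.83 ± 0.15, adjusted p 0.000612). Its values in NRK-49F, 61.1, 76.4, 93.5 and 60.1 FPM and 62.4, 73.6, 76.7 and 84.7 FPM, overlapped (0.01). Its interaction of 0.80 ± 0.22 (adjusted p 0.00593) was not called without N2, N3, N5, N8, N10, N11, N12, N13 or N15, where adjusted p ran from 0.0106 to 0.0315. The other e subunit, Atp6v0e2, was no DEG in either line (-0.33 and -0.19), but without N8 (-0.41, adjusted p 0.00392) or under scaling by total counts (-0.54) it was lower in NRK-52E.

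The large a subunit forms the channel through which protons pass, and its isoforms place the pump in different membranes. Atp6v0a2 measured 37.7, 41.1, 40.8 and 40.9 FPM in NRK-52E at pH 7.4 and 67.4, 95.5, 88.5 and 77.7 FPM at pH 6.0. The fibroblast line, NRK-49F, gave 43.1, 41.8, 42.7 and 40.6 FPM and 89.2, 86.8, 88.0 and 83.0 FPM. In both lines the acid libraries were far above the controls and the groups did not overlap (log2 change 1.01 ± 0.11, adjusted p 1.34e-05, and log2 change 1.03 ± 0.08, adjusted p 1.41e-06), and the interaction was -0.03 ± 0.13. The isoform Atp6v0a1 ran from 71.7 to 83.7 FPM and from 64.3 to 72.0 FPM in NRK-52E and was no DEG in either line (-0.22 and 0.06). Atp6v0a4, the isoform of acid-secreting kidney cells, stayed between 0.799 and 3.66 FPM over all libraries and was no DEG either (0.56 and 0.68).

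The d subunit couples the ring to the central stalk. Atp6v0d1 fell in NRK-49F, from 158, 149, 163 and 161 FPM at pH 7.4 to 106, 104, 109.6 and 107 FPM at pH 6.0 (log2 change -0.58 ± 0.08, adjusted p 6.05e-05). The 4 acid libraries lay closely together and below all controls. In NRK-52E its groups overlapped (-0.02), and the interaction was 0.55 ± 0.11 (adjusted p 0.000328). The tissue-restricted isoform Atp6v0d2 failed the filter, with 14 and 1 counts over the NRK-52E groups at pH 7.4 and 6.0 and 0 in NRK-49F.

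The V1 subunits split ATP and turn the stalk. They showed no common direction: of 11 tested in NRK-52E, 3 were higher and 3 lower at pH 6.0 (median 0.13), and in NRK-49F 2 were higher and 4 lower (median 0.13). Without N8 the NRK-52E counts were 3 and 4. Under scaling by total counts, they were 2 and 4. The higher genes in NRK-52E encode the rotor subunit D, the B2 isoform and the stator subunit G1, and the lower genes were kidney-, lung- or nerve-restricted isoforms. In NRK-52E, isoforms of subunit B thus differed in the sign of their change. So did those of G, but the lower form, Atp6v1g2, passed the filter in both lines only through the controls. It is counted here as description only.

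Atp6v1d, the rotor shaft that turns inside V1, measured 98.7, 81.0, 84.9 and 92.7 FPM in NRK-52E at pH 7.4 and 374, 330.4, 411 and 460.0 FPM at pH 6.0. Every acid library lay far above the highest control (log2 change 2.12 ± 0.12, adjusted p 2.34e-07, a fold change of 4.36). The NRK-49F values were 170.2, 167, 202 and 162 FPM and 206, 198, 195 and 179 FPM, with overlapping groups (0.13, no DEG). The interaction was 1.97 ± 0.15 with adjusted p 1.71e-08. At pH 7.4 the gene was lower in NRK-52E than in NRK-49F (-0.89 ± 0.09) and at pH 6.0 it was higher (1.0 ± 0.12).

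Subunit G stiffens the outer stalks that hold V1 in place. Atp6v1g1, its broadly expressed form, measured 169.7, 146, 136 and 156 FPM in NRK-52E at pH 7.4 and 289.7, 229, 239.6 and 286 FPM at pH 6.0. NRK-49F libraries measured 279, 268, 339.5 and 279.9 FPM and 180.2, 212, 223 and 201 FPM. The groups did not overlap in either line, with the acid libraries above the controls in NRK-52E (log2 change 0.77 ± 0.11, adjusted p 0.000131) and below them in NRK-49F (log2 change -0.53 ± 0.11, adjusted p 0.0012). The interaction was 1.28 ± 0.15 with adjusted p 2.63e-06. Atp6v1g2, a neuronal form with few counts, ran from 0.857 to 1.74 FPM and from 0.205 to 0.564 FPM in NRK-52E (-1.60 ± 0.39). It ran from 2.69 to 2.98 FPM and from 0.398 to 0.970 FPM in NRK-49F (-2.08 ± 0.29), lower without overlap in both lines. Its acid libraries held 5 to 12 counts each in NRK-52E and 6 to 31 in NRK-49F. Atp6v1g2 thus passed the filter in both lines only through the controls, and its calls are given as description only. The call in NRK-52E was lost without N2, N3, N5 or N7 (adjusted p from 0.0104 to 0.014). Atp6v1g3 had no count in any library.

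Subunits A and B form the ATP-splitting ring. Atp6v1b1, the B isoform of acid-secreting kidney cells, measured 8.06, 6.64, 11.1 and 11.8 FPM in NRK-52E at pH 7.4 and 0.917, 2.34, 1.76 and 3.62 FPM at pH 6.0. Values in NRK-49F were 5.26, 6.5, 6.39 and 4.51 FPM and 3.23, 2.79, 3.15 and 2.25 FPM. It was lower at pH 6.0 without overlap in both lines (log2 change -2.12 ± 0.35, adjusted p 0.000317, and log2 change -1.0 ± 0.21, adjusted p 0.00179), on sums of 848 and 187 counts in NRK-52E and 432 and 284 in NRK-49F. Its widespread counterpart Atp6v1b2 was higher in NRK-52E (log2 change 0.46 ± 0.08, adjusted p 0.000454), from 104 to 110.3 FPM at pH 7.4 and from 138 to 167 FPM at pH 6.0, a call lost under scaling by total counts (0.25, adjusted p 0.027), and no DEG in NRK-49F (0.15). Atp6v1a was no DEG in NRK-52E (-0.03) and higher in NRK-49F (log2 change 0.44 ± 0.11, adjusted p 0.0051), a call lost without N10, N14, N15 or N16 (adjusted p from 0.0104 to 0.013).

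Subunit C joins the stalks to V0 and leaves when the pump is taken apart. Atp6v1c2, a restricted isoform, measured 3.70, 4.06, 3.69 and 3.67 FPM in NRK-52E at pH 7.4 and 1.65, 1.12, 1.35 and 1.41 FPM at pH 6.0. The fibroblast line, NRK-49F, gave 8.29, 4.85, 7.31 and 7.39 FPM and 1.95, 2.26, 1.95 and 2.66 FPM. The acid libraries lay below the controls in both lines (-1.47 ± 0.21 and -1.67 ± 0.22, adjusted p 9.03e-05 and 5.82e-05). Its common counterpart Atp6v1c1 was no DEG (0.13 and 0.16). Atp6v1h, a regulator of the split between V1 and V0, was higher in NRK-49F (log2 change 0.45 ± 0.10, adjusted p 0.00256, 0.0103 without N10). The outer-stalk subunit Atp6v1e1 (0.36 and 0.29) and the rotor subunit Atp6v1f (-0.62 and -0.25) were no DEGs. Without N8 Atp6v1f was lower in NRK-52E (-0.94, adjusted p 2.64e-05), and without N13 Atp6v1e1 was higher in NRK-49F (0.38, adjusted p 0.00346), and both were also called under scaling by total counts (-0.82 and 0.34). Atp6v1e2 failed the filter, with at most 40 counts over a group. Atp6v1fnb was tested in NRK-52E alone and was no DEG (-0.36).

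**Figure D2:**
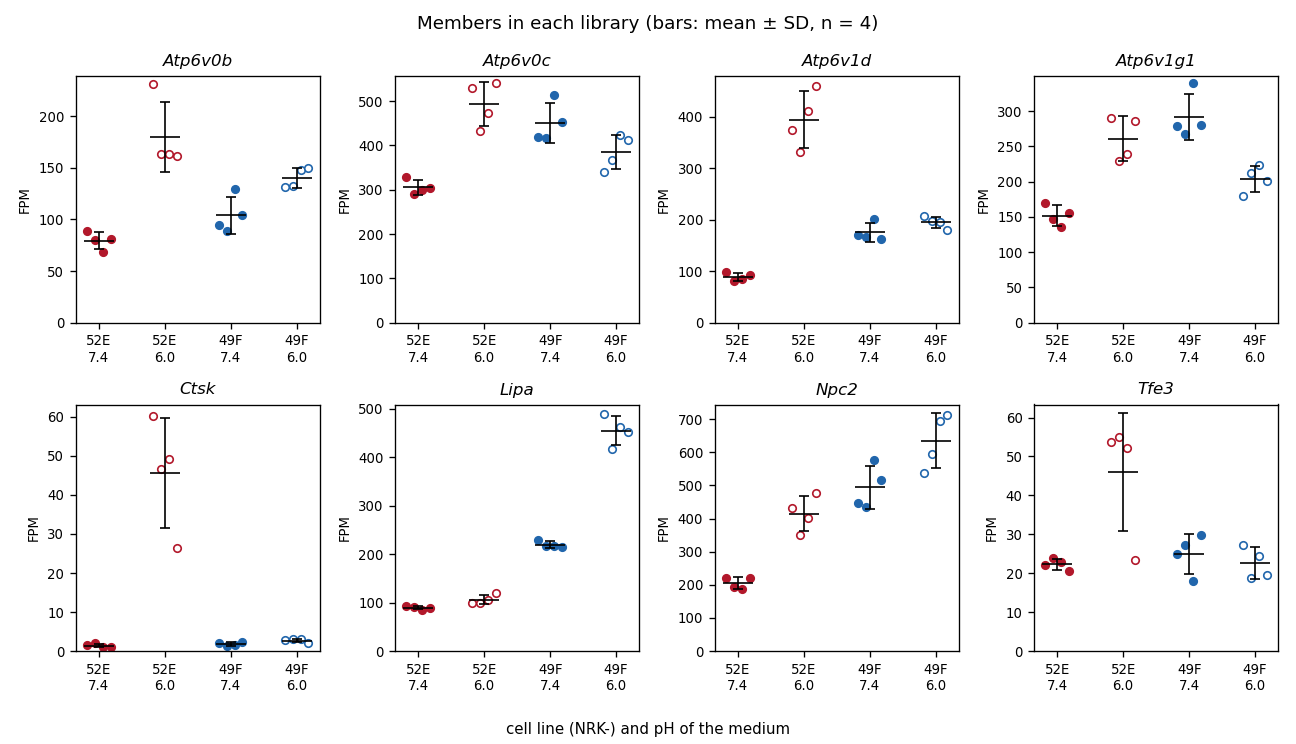
FPM of each library (y axis) of Atp6v0b, Atp6v0c, Atp6v1d, Atp6v1g1, Ctsk, Lipa, Npc2 and Tfe3 in the 4 groups (x axis; filled points pH 7.4, open points pH 6.0), with mean ± SD of 4 libraries. Atp6v1d lies between 81.0 and 98.7 FPM at pH 7.4 and between 330.4 and 460.0 FPM in acid medium in NRK-52E, and Tfe3 in N8 lies at 23.5 FPM, far below the other acid NRK-52E libraries.

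Among the accessory proteins, Atp6ap1, which helps the pump assemble and stays bound to it, ran from 238 to 259 FPM at pH 7.4 and from 202 to 223 FPM at pH 6.0 in NRK-52E, and from 254 to 283 FPM and 285 to 405 FPM in NRK-49F. It was no DEG in either line (-0.25 and 0.28), but it was lower in NRK-52E without N8 (-0.29, adjusted p 0.00305) and under scaling by total counts (-0.46), and its interaction was called (-0.54 ± 0.14, adjusted p 0.00389). Atp6ap2, also known as the prorenin receptor, was no DEG (0.26 and 0.19). Of a list of 11 further pump subunit and assembly genes, all tested, 4 were higher and 3 lower at pH 6.0 in NRK-52E (median 0.16), and 2 were higher and 1 lower in NRK-49F (median 0.27).

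Tcirg1, the a3 isoform of V0, was placed in that list because its symbol does not match the name pattern. It measured 51.9, 49.2, 52.2 and 46.3 FPM in NRK-52E at pH 7.4 and 174, 139.5, 139.5 and 135 FPM at pH 6.0, with no overlap (log2 change 1.54 ± 0.11, adjusted p 6.12e-07). In NRK-49F it ran from 217 to 282 FPM and from 216 to 271 FPM (-0.06), and the interaction was 1.58 ± 0.15 (adjusted p 1.68e-07). Tmem199, an assembly factor of V0 in the endoplasmic reticulum, was higher in both lines (1.55 ± 0.13 and 0.65 ± 0.09), and its partner Ccdc115 was lower in NRK-49F (-0.52 ± 0.09). Dmxl2 and Oxr1, which act on pump assembly and disassembly, were lower in NRK-52E (-1.30 ± 0.16 and -0.75 ± 0.17). Dmxl1, a relative of Dmxl2, was higher in NRK-49F (1.36 ± 0.25).

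The proteases digest proteins in the acid lumen. Of 8 tested in NRK-52E, 2 were higher and 2 lower at pH 6.0 (median 0.13), and in NRK-49F 3 were higher and 1 lower (median 0.56). The epithelial rises were Ctsk and Ctss, both scarce at pH 7.4, and the fibroblast rises were Ctsb, Ctsd and Tpp1. Ctss passed the filter in NRK-52E only through the acid libraries and is counted as description only. Within number 20 of NRK-49F the counts were again 3 higher and 1 lower, whereas within number 21, with 2 libraries per group, Ctsb, Ctsd and Tpp1 were not called but had changes of 0.86, 0.80 and 0.71. Ctsa was lower in both lines.

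Ctsk, a collagen-degrading cysteine protease, measured 1.55, 2.05, 1.04 and 1.05 FPM in NRK-52E at pH 7.4 and 60.2, 46.6, 49.3 and 26.3 FPM at pH 6.0. The groups were far apart, and N8 was the lowest of the acid libraries (log2 change 4.97 ± 0.31, adjusted p 3.45e-07, a fold change of 31.4). The NRK-49F values were 2.17, 1.42, 1.51 and 2.21 FPM and 2.75, 2.98, 3.02 and 2.0 FPM, overlapping in part, and the gene was no DEG (0.53). The interaction was 4.44 ± 0.39 with adjusted p 7.45e-08. Ctss, a cysteine protease known from antigen-presenting cells, lies on chromosome 2 with 1 gene between it and Ctsk. It measured 0.0937, 0.0410, 0.0415 and 0.286 FPM in NRK-52E at pH 7.4 and 3.43, 2.88, 2.91 and 2.59 FPM at pH 6.0, sums of 10 and 246 counts (log2 change 4.64 ± 0.44, adjusted p 5.3e-06). These libraries held 1 to 6 counts at pH 7.4 and 55 to 71 at pH 6.0. Ctss thus passed the filter in NRK-52E only through the acid libraries. Its call there, and the interaction that uses it, are given as description only. NRK-49F libraries measured 0.343, 0.152, 0.593 and 0.830 FPM and 0.620, 1.33, 1.56 and 2.19 FPM, with overlap (1.54, a DEG without N11 at 1.78, adjusted p 0.00705). Its interaction of 3.09 ± 0.75 (adjusted p 0.00228) was not called without N14 (2.61, adjusted p 0.0121).

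Ctsb, a cysteine protease of broad use, measured 1500, 1442, 1681 and 1679 FPM in NRK-49F at pH 7.4 and 2518, 2549, 2968 and 3197 FPM at pH 6.0. The acid libraries lay well above the controls (log2 change 0.82 ± 0.11, adjusted p 6.76e-05), whereas in NRK-52E the gene was no DEG (0.19; interaction -0.64 ± 0.15, adjusted p 0.00137). Ctsd, the aspartic protease of the lysosome, measured 2602, 2513, 2950 and 2897 FPM in NRK-49F at pH 7.4 and 3925, 3889, 5008 and 5310 FPM at pH 6.0, also without overlap (log2 change 0.71 ± 0.12, adjusted p 0.000468). It was no DEG in NRK-52E (0.17), and its interaction was not called (-0.55, adjusted p 0.014), but it was without N3, N11 or N12 (adjusted p 0.000938, 0.00889 and 0.00827) and under scaling by total counts (-0.79).

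Tpp1, which clips tripeptides from protein ends, moved in opposite directions. It measured 216, 224, 251 and 241 FPM in NRK-52E at pH 7.4 and 151, 178, 177 and 159.8 FPM at pH 6.0. Values in NRK-49F were 272, 275, 257 and 283 FPM and 380.2, 372, 409.7 and 488 FPM. Neither pair of groups overlapped: acid libraries were below the controls in NRK-52E (log2 change -0.51 ± 0.09, adjusted p 0.000408) and above them in NRK-49F (log2 change 0.59 ± 0.10, adjusted p 0.000377), with an interaction of -1.11 ± 0.13 (adjusted p 2.79e-06). Ctsa is a carboxypeptidase that also shields Glb1 and Neu1 from degradation in a shared complex. It measured 659, 596, 608 and 644 FPM in NRK-52E at pH 7.4 and 378, 322, 329 and 345 FPM at pH 6.0. The fibroblast line, NRK-49F, gave 1023, 974, 1018 and 1011 FPM and 668, 674, 709 and 762 FPM. It fell in both lines without overlap (-0.89 ± 0.09 and -0.53 ± 0.09, adjusted p 8.55e-06 and 0.000313). The cysteine proteases Ctsl (0.09 and 0.16) and Ctsz (-0.17 and -0.25) were no DEGs by pH.

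The glycosidases remove sugars from glycoproteins and glycolipids. All 5 were lower at pH 6.0 in NRK-52E, with a class median of -1.34 beside 0 for all genes tested. The count was 5 without N8, 5 without any other single library and 5 under scaling by total counts, and with 2 libraries per group it was 4 within number 21 and 2 within number 22. In NRK-49F 1 was lower (Glb1), 1 was higher (Neu1) and the median was 0.09. For Gla, Gusb and Neu1 the difference between the lines was itself called. Under scaling by total counts or by DESeq2 size factors it was called for all 5.

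Gusb, the beta-glucuronidase, measured 181, 175, 172 and 174 FPM in NRK-52E at pH 7.4 and 50.4, 48.9, 52.8 and 67.2 FPM at pH 6.0. The control values were nearly alike and far above every acid library (log2 change -1.70 ± 0.11, adjusted p 5.68e-07). The NRK-49F values were 112, 113, 133 and 129.5 FPM and 111, 105, 149 and 159 FPM, with overlap (0.09). The interaction was -1.80 ± 0.18 with adjusted p 3.67e-07. Gla, the alpha-galactosidase A lacking in Fabry disease, measured 25.2, 25.2, 24.8 and 26.0 FPM in NRK-52E at pH 7.4 and 9.30, 9.71, 9.10 and 12.3 FPM at pH 6.0, again without overlap (log2 change -1.34 ± 0.14, adjusted p 8.61e-06). Its values in NRK-49F, 28.0, 26.9, 24.9 and 23.1 FPM and 25.2, 26.2, 31.3 and 32.8 FPM, overlapped (0.15; interaction -1.51 ± 0.17, adjusted p 1.6e-06).

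Neu1, which removes sialic acid, measured 37.9, 42.3, 37.5 and 38.6 FPM in NRK-52E at pH 7.4 and 14.1, 13, 14.47 and 24.3 FPM at pH 6.0. The acid libraries lay below the controls, N8 nearest to them (log2 change -1.25 ± 0.19, adjusted p 0.000173), and within number 22, which holds N8, the change was -0.99 with adjusted p 0.0359. NRK-49F libraries measured 38.0, 35.4, 41.2 and 46.4 FPM and 71.6, 65.1, 65.0 and 50.7 FPM, here with the acid libraries above (log2 change 0.63 ± 0.12, adjusted p 0.00107), but within number 21 the change was 0.38 and not called (adjusted p 0.156), against 0.90 within number 20. The interaction was -1.90 ± 0.23 (adjusted p 2.68e-06). Glb1, the beta-galactosidase, measured 213, 199, 183 and 190.0 FPM in NRK-52E at pH 7.4 and 69.9, 63.4, 63.4 and 85.1 FPM at pH 6.0. Values in NRK-49F were 406, 373, 391 and 405 FPM and 172, 179, 209 and 223 FPM. It was lower without overlap in both lines (-1.50 ± 0.12 and -1.02 ± 0.10, adjusted p 1.38e-06 and 4.75e-06), and its interaction of -0.49 was not called (adjusted p 0.0114), but it was without N3, N8 or N11 (adjusted p 0.00515, 0.00104 and 0.00709) and under scaling by total counts or by DESeq2 size factors.

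Hexa, which removes amino sugars from glycolipids, measured 568, 503, 503 and 541 FPM in NRK-52E at pH 7.4 and 425, 350.0, 384 and 399.5 FPM at pH 6.0, the smallest of the 5 falls (log2 change -0.46 ± 0.09, adjusted p 0.00122). In NRK-49F its groups overlapped, from 459 to 589 FPM and from 479 to 578 FPM. Its interaction of -0.47 was not called, but it was without N3, N11 or N14 (adjusted p 0.00163, 0.00817 and 0.00529).

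**Figure D3:**
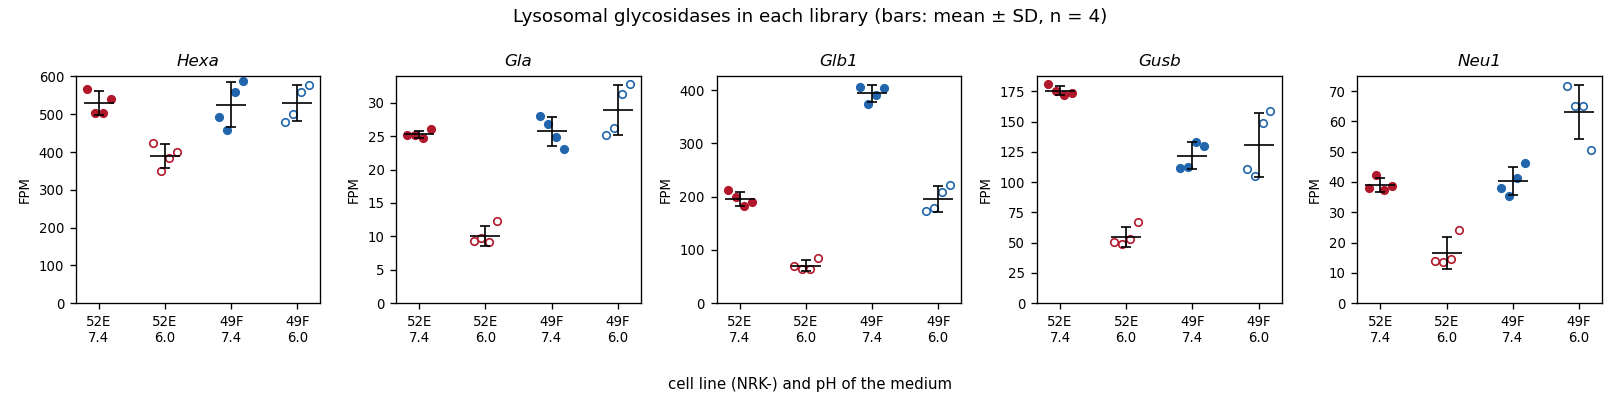
FPM of each library (y axis) of Hexa, Gla, Glb1, Gusb and Neu1 in the 4 groups (x axis; filled points pH 7.4, open points pH 6.0), with mean ± SD of 4 libraries. In NRK-52E the acid libraries lie below the controls for all 5 genes, for Gusb from 48.9 to 67.2 FPM against 172 to 181 FPM, while in NRK-49F Neu1 lies higher at pH 6.0.

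Among the genes of lipid breakdown, 1 of 4 was higher in NRK-52E (median 0.10) and 3 of 4 were higher in NRK-49F (median 0.63). Lipa, the acid lipase that frees cholesterol from its esters, measured 229.7, 217, 218 and 215 FPM in NRK-49F at pH 7.4 and 489, 417, 463 and 451 FPM at pH 6.0. Every acid library lay far above every control (log2 change 1.03 ± 0.09, adjusted p 1.74e-06). In NRK-52E the values were 94.1, 90.8, 84.8 and 89.5 FPM and 99.6, 99.8, 105 and 120.1 FPM, apart by a small step that was no DEG (log2 change 0.22 ± 0.09, adjusted p 0.0495). The interaction was -0.83 ± 0.12 with adjusted p 1.54e-05.

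Psap, whose protein is cut into the saposins that help hydrolases reach lipids, rose in NRK-49F from 1416, 1355, 1335 and 1408 FPM to 2034, 1983, 2420 and 2728 FPM (log2 change 0.72 ± 0.11, adjusted p 0.000212). In NRK-52E its groups overlapped (-0.03), and the interaction was -0.76 ± 0.15 (adjusted p 0.000394). Smpd1, the acid sphingomyelinase, measured 395, 345, 349.6 and 361 FPM and 544, 528, 562 and 679 FPM in NRK-52E at pH 7.4 and 6.0. The fibroblast line, NRK-49F, gave 219.8, 209, 215 and 242 FPM and 347, 323, 332 and 298 FPM. It was higher at pH 6.0 in both lines without overlap (0.66 ± 0.10 and 0.54 ± 0.09, adjusted p 0.000234 and 0.000297). Acid ceramidase Asah1 was no DEG (-0.07 and 0.22). Over the proteases, glycosidases and lipid genes together, 3 of 17 were higher and 7 lower in NRK-52E (median -0.07), and 7 were higher and 2 lower in NRK-49F (median 0.53).

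The membrane and cholesterol transport proteins were split: 2 of 7 were higher and 1 lower in NRK-52E (median 0.18), and 2 were higher and 2 lower in NRK-49F (median 0.20). Npc2, a soluble carrier that hands cholesterol to Npc1, measured 220.1, 195, 188 and 221 FPM in NRK-52E at pH 7.4 and 432, 351, 401 and 476 FPM at pH 6.0, without overlap (log2 change 1.0 ± 0.11, adjusted p 2.21e-05). The NRK-49F values were 448, 435, 576 and 517 FPM and 538, 594, 694 and 713 FPM, with overlap (log2 change 0.34 ± 0.12, adjusted p 0.032, no DEG, but 0.43 with adjusted p 0.00746 without N13 and 0.36 with 0.00967 within number 20, both called). Its interaction of 0.64 ± 0.17 (adjusted p 0.0048) was lost without N2, N3, N5, N11, N12, N13 or N14 (adjusted p from 0.0101 to 0.0274). Npc1, the membrane exporter of cholesterol, was no DEG in NRK-52E (-0.30) but was higher in NRK-49F (log2 change 0.58 ± 0.15, adjusted p 0.00616), a call lost without N9, N10, N11, N15 or N16 (adjusted p from 0.0133 to 0.0176), and its interaction was -0.89 ± 0.22 (adjusted p 0.00259).

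Mcoln1, the channel that releases calcium from the lysosome, measured 41.3, 38.1, 42.3 and 37.7 FPM in NRK-52E at pH 7.4 and 23.9, 27.9, 27.6 and 34.5 FPM at pH 6.0. NRK-49F libraries measured 68.0, 65.0, 68.7 and 75.0 FPM and 35.7, 37.5, 35.3 and 30.5 FPM. The acid libraries lay below the controls in both lines, clearly so in NRK-49F (log2 change -1.01 ± 0.10, adjusted p 5.74e-06). The call in NRK-52E (log2 change -0.50 ± 0.13, adjusted p 0.0043) was lost without N1, N2, N3, N5 or N7 (adjusted p from 0.0103 to 0.0152).

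Lamp2, an abundant glycoprotein of the lysosomal membrane, measured 320.1, 318, 329 and 349 FPM in NRK-52E at pH 7.4 and 506, 415, 514 and 527 FPM at pH 6.0, with all acid libraries above (log2 change 0.56 ± 0.10, adjusted p 0.000564). In NRK-49F it was no DEG (0.20). The related Lamp1 was no DEG in NRK-52E (0.18) but was lower in NRK-49F (log2 change -0.34 ± 0.09, adjusted p 0.00578), a call lost without N9, N11, N12, N13, N14 or N15 (adjusted p from 0.0118 to 0.0211). Scarb2, a sorting receptor that spans the lysosomal membrane, ran from 47.2 to 102 FPM at pH 7.4 and from 124 to 136 FPM at pH 6.0 in NRK-49F (log2 change 0.71 ± 0.19, adjusted p 0.00758). This call was lost without N11, N12, N14, N15 or N16 (adjusted p from 0.0141 to 0.0278). The tetraspanin Cd63 was no DEG (0.45 and -0.24), but without N4 it was higher in NRK-52E (0.51, adjusted p 0.00365).

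The 3 transcription factors did not move together. Tfeb measured 55.4, 49.4, 47.7 and 52 FPM in NRK-52E at pH 7.4 and 55.9, 46.8, 46.6 and 46.1 FPM at pH 6.0, with overlap (-0.08). Values in NRK-49F were 24.9, 29.7, 27.1 and 26.5 FPM and 16.2, 13.3, 16.4 and 11.8 FPM, the acid libraries below all controls (log2 change -0.92 ± 0.13, adjusted p 0.000117; interaction 0.82 ± 0.16, adjusted p 0.000439). Tfe3 measured 22.1, 23.8, 23.0 and 20.5 FPM in NRK-52E at pH 7.4 and 53.6, 54.9, 52.3 and 23.5 FPM at pH 6.0. N3, N4 and N7 were far above the controls while N8 lay among them (log2 change 1.02 ± 0.22, adjusted p 0.002), and the change was 1.23 with adjusted p 3.49e-07 without N8 and 0.96 with adjusted p 0.0101 without N6. The fibroblast line, NRK-49F, gave 24.9, 27.3, 17.9 and 29.9 FPM and 27.4, 18.9, 24.6 and 19.5 FPM, with overlap (-0.16). Its interaction of 1.17 ± 0.30 (adjusted p 0.0037) was lost under scaling by total counts (0.94, adjusted p 0.0186) and was not called without N3 (0.98, adjusted p 0.0175) or N14 (1.07, adjusted p 0.01).

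Mitf, best known from pigment cells, was scarce in NRK-52E, with 0.890, 0.656, 1.87 and 1.81 FPM at pH 7.4 and 0.122, 0, 0.205 and 0.188 FPM at pH 6.0. Its acid libraries held 11 counts in all, against 118 in the controls, so the gene fell by 3.29 ± 0.61 on the log2 scale (adjusted p 0.000625) on few counts. Each acid library held 0 to 5 counts and each control 16 to 45. Mitf thus passed the filter in NRK-52E only through the controls. Its call there, and the interaction that uses it, are given as description only. The NRK-49F values were 27.2, 24.9, 26.4 and 23.6 FPM and 30.4, 28.7, 31.6 and 32.6 FPM. The acid libraries were slightly above the controls, but the gene was no DEG (log2 change 0.26 ± 0.10, adjusted p 0.0426). Transcript levels do not show where a factor is in the cell, and its activity was not measured.

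Further lysosome genes came from lists of their own. The largest held 35 other hydrolases and activators, of which 31 were in the table. In NRK-52E 27 were tested, and 18 were lower and 5 higher at pH 6.0, with a median of -0.79. In NRK-49F 29 were tested, and 8 were lower and 5 higher, with a median of -0.18. The lower count in NRK-52E was from 16 to 19 when 1 library at a time was left out, and 9 within number 22.

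Acp2, the acid phosphatase of the lysosome, was lower in NRK-52E (-2.60 ± 0.16) and in NRK-49F (-0.73 ± 0.12; interaction -1.88 ± 0.18). Naglu, which acts on heparan sulfate, was higher in both lines (1.10 ± 0.15 and 1.15 ± 0.11), and so was the hyaluronidase Hyal1 (1.45 ± 0.32 and 1.31 ± 0.32). The proteases Ctsc and Ctsh were lower in NRK-49F (-1.85 ± 0.35 and -1.28 ± 0.12). In NRK-52E Ctsc had no count in any library and Ctsh failed the filter.

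Of 23 other lysosomal membrane proteins, 21 were tested in each line. In NRK-52E 4 were higher and 6 lower (median 0.06; 2 and 7, median -0.15, under scaling by total counts), and in NRK-49F 4 were higher and 4 lower (median 0.02). Slc17a5, the exporter of sialic acid, was higher in both lines (2.06 ± 0.10 and 1.04 ± 0.12). Tmem192, of unclear role, was higher in NRK-52E (0.63 ± 0.14) but lower in NRK-49F (-0.55 ± 0.13). Slc36a1, a proton-coupled amino acid transporter, was lower in NRK-52E (-1.71 ± 0.25), as was the channel Mcoln3 (-1.17 ± 0.25). In NRK-49F Mcoln3 measured 0, 0, 0 and 0.0395 FPM at pH 7.4 and 1.15, 1.39, 1.33 and 1.41 FPM at pH 6.0, so no fold is given against a group near 0. Cd68 was higher in NRK-49F (1.56 ± 0.14), and the nucleoside transporter Slc29a3 was lower there (-0.75 ± 0.12).

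Of 10 genes that sort enzymes to the lysosome, all tested, 3 were higher and 4 lower in NRK-52E (median -0.26; 2 and 5 under scaling by total counts), and 3 were higher and 3 lower in NRK-49F (median -0.12). Gnptg, a subunit of the enzyme that begins the mannose 6-phosphate tag, measured 32.0, 27.2, 28.3 and 30.7 FPM in NRK-52E at pH 7.4 and 4.22, 4.23, 2.75 and 4.61 FPM at pH 6.0. NRK-49F libraries measured 65.6, 63.7, 83.0 and 71.4 FPM and 9.96, 12.9, 14.6 and 18.4 FPM. It was lower in both lines without overlap (log2 change -2.92 ± 0.18, adjusted p 3.2e-07, and log2 change -2.35 ± 0.17, adjusted p 5.71e-07). The receptor of that tag, Igf2r, was lower in NRK-52E (-1.45 ± 0.10), and the sorting receptor Sort1 was lower in NRK-49F (-1.05 ± 0.14). The adaptors Gga2 and Gga3 were higher in both lines (0.54 ± 0.09 and 0.66 ± 0.09 for NRK-52E, 0.87 ± 0.10 and 0.61 ± 0.11 for NRK-49F).

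Of 15 genes of nutrient sensing at the lysosome, 13 were in the table and 12 tested. In NRK-52E 4 were higher and 3 lower (median 0.30; 2 and 3, median 0.09, under scaling by total counts), and in NRK-49F 1 was higher and 1 lower (median 0.04). Rragd and Rragc, GTPases that recruit mTORC1, were higher in NRK-52E (0.95 ± 0.18 and 0.83 ± 0.08), and Mlst8 and Mtor of that complex were lower (-1.68 ± 0.16 and -0.44 ± 0.13). In NRK-49F Fnip2, a partner of folliculin, was higher (1.21 ± 0.19), and Lamtor1, the membrane anchor of the Ragulator complex, was lower (-0.85 ± 0.11). Without N8, 5 genes of this list were higher and 2 lower in NRK-52E. The counts without N8 were 3 and 5 for enzyme sorting, and 5 and 7 for the other membrane proteins.

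NRK-52E was also set against NRK-49F within each pH, with positive values for higher in NRK-52E. These comparisons reuse the libraries of the pH comparisons, and line, culture support and separate handling cannot be told apart in them. At pH 7.4, 9 of 48 members were higher in NRK-52E, beside 33.3% of the 14026 genes tested, and 19 were lower, beside 33.3%. The median was -0.18 over the members and 0.03 over all genes. Under scaling by total counts the split was 20 higher and 15 lower, while the median of all genes moved by 0.31 in the same direction. Shares over all genes under that scaling are not given here, so this split cannot be read on its own. At pH 6.0, 10 of 49 were higher, beside 28.6% of the 13796 genes tested, and 23 were lower, beside 31.3%. The median was -0.55 over the members and -0.03 over all genes. Without N8 the counts were 10 and 25, and under scaling by total counts 15 and 19.

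Most of the members lower in NRK-52E at pH 6.0 were hydrolases, while Atp6v1f, Atp6v1h and Atp6ap1 were among the others. Of 17 hydrolases, 14 were lower in NRK-52E and 2 higher (median -1.27), and under scaling by total counts 12 were lower and 3 higher. At pH 7.4, 7 of 16 were lower and 3 higher (median -0.35), and 6 were lower and 6 higher under scaling by total counts. All 5 glycosidases were lower in NRK-52E at pH 6.0 (median -1.49; 4 under scaling by total counts), a count that was 4 without N4, N7 or N15, each of which took Hexa out (adjusted p from 0.0112 to 0.0127). At pH 7.4, 1 glycosidase was lower and 1 higher, against 1 lower and 4 higher under scaling by total counts. Of the V0 subunits, 3 were higher and 1 lower at pH 6.0 (median 0.34), and 1 was higher and 1 lower at pH 7.4 (median -0.14); under scaling by total counts 5 were higher and 1 lower at pH 6.0, and 3 were higher at pH 7.4. Of the V1 subunits, 2 were higher and 3 lower at pH 6.0, and 3 were higher and 7 lower at pH 7.4 (3 and 2, and 4 and 5, under scaling by total counts). Of the 30 other hydrolases tested, 23 were lower and 4 higher at pH 6.0, and 15 were lower and 7 higher at pH 7.4.

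Some lysosomal genes marked the lines at both pH values. Ctsl, a cysteine protease, measured 339, 325, 283 and 337 FPM in NRK-52E and 2637, 2596, 3409 and 2982 FPM in NRK-49F at pH 7.4, widely apart (log2 change -3.10 ± 0.12, adjusted p 5.89e-10; -3.27 ± 0.22 at pH 6.0). Ctsd was lower in NRK-52E at pH 7.4, with 761 to 885 FPM against 2513 to 2950 FPM (-1.65 ± 0.09; -2.28 ± 0.16 at pH 6.0). Ctsz, another cysteine protease, was lower on few counts, with 54 against 394 counts over the groups at pH 7.4 (-2.99 ± 0.22; -3.01 ± 0.36 at pH 6.0). Mitf reached 0.656 to 1.87 FPM in NRK-52E at pH 7.4, against 23.6 to 27.2 FPM in NRK-49F (-4.20 ± 0.26). Tfeb was higher in NRK-52E at both pH values (1.0 ± 0.09 and 1.74 ± 0.15), as were Lamp1 (0.61 ± 0.08 and 1.04 ± 0.10), Smpd1 (0.79 ± 0.08 and 0.82 ± 0.12) and Atp6v1b2 (0.46 ± 0.07 and 0.67 ± 0.11). Atp6v1f was lower at both (-1.42 ± 0.11 and -1.87 ± 0.22), as was Lipa (-1.21 ± 0.06 and -2.12 ± 0.11). Among the further hydrolases, Ctsf at pH 7.4 reached 0.166 to 0.428 FPM in NRK-52E against 438 to 482 FPM in NRK-49F, and Manba 0.663 to 0.904 FPM against 44.8 to 56.5 FPM. Ctsf, Manba, Atp6v0c, Atp6v1f, Ctsl, Ctsz, Hexa, Cd63, Asah1 and the accessory proteins were named after their values were seen.

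Whether the pH response differed between the lines was tested as an interaction, the change in NRK-52E minus the change in NRK-49F. At an adjusted p below 0.01 in edgeR it was called for 13 members upward, beside 19.4% of the 14679 genes tested, and for 10 downward, beside 17.6%. Ctss among the upward and Mitf among the downward are description only. Without N8 the counts were 11 and 13, and under scaling by total counts 6 and 17. Without N3, 7 were upward and 14 downward, and 2 V0 subunits were upward in place of 4. The median was -0.09 over the members and -0.01 over all genes. By role, 6 of 19 V0 and V1 subunits had an upward interaction and the other 13 were not called. Under scaling by total counts 3 were upward and 3 downward, and without N8 the counts were 5 and 2, the downward ones being Atp6v1b1 (-1.49, adjusted p 0.0024) and Atp6v1f (-0.70, adjusted p 0.00147). Of the 17 hydrolases, 2 were upward and 7 downward (median -0.49), and 2 and 11 under scaling by total counts. Of the 30 other hydrolases tested, 2 were upward and 16 downward (median -0.72). Membrane proteins with an upward interaction were Lamp1 (0.51 ± 0.12; 0.34 and adjusted p 0.0183 without N3), Npc2 and Cd63, and under scaling by total counts none of these was called (0.27, 0.39 and 0.43). Cd63 (0.67 ± 0.19, adjusted p 0.00711) was not called without N2, N3, N5, N8, N11, N12, N13 or N14 (adjusted p from 0.0115 to 0.0468).

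MiT/TFE factors are known to bind the 8-letter element TCACGTGA, called CLEAR, and the promoters of the members were searched for it as a description. The sequences, from RefSeq on build GRCr8, span 250 bases before to 50 bases after each gene start, and 42 of the 52 members were matched by symbol. Not in the table were Asah1, Atp6v0d2, Atp6v0e2, Atp6v1b2, Atp6v1c1, Atp6v1fnb, Atp6v1h, Ctsb, Hexa and Psap. The counts were made on rn6, a different build. TCACGTGA, which reads the same on both strands, was in 5 of 42 member promoters (11.9%) and in 260 of all 33469 promoters (0.777%). The shorter E-box CACGTG, contained in it, was in 7 of 42 (16.7%) against 6.42% of all. TCATGTGA, searched on both strands, was in Atp6v0c, Atp6v1a, Cd63, Ctss and Tpp1 (11.9% against 1.16%). By role, TCACGTGA was in 2 of 7 V0 promoters, 2 of 7 membrane protein promoters, 1 of 7 protease promoters, 0 of 10 V1 promoters and 0 of 4 glycosidase promoters. The 5 members with the element did not share a response to pH, with log2 changes in NRK-52E and NRK-49F of -0.02 and -0.58 for Atp6v0d1, 0.83 and 0.01 for Atp6v0e1, 0.17 and 0.71 for Ctsd, 0.18 and -0.34 for Lamp1, and -0.50 and -1.01 for Mcoln1. A match in letters is not evidence of binding, which was not measured. Their promoters are shown so that the element can be seen in place, with TCACGTGA in capitals, 5′ to 3′ along the gene: Atp6v0d1 (chr19:50357199-50357498, minus strand), Atp6v0e1 (chr10:17007107-17007406, minus), Ctsd (chr1:206968772-206969071, minus), Lamp1 (chr16:83075014-83075313, minus, with 2 copies) and Mcoln1 (chr12:6358008-6358307, plus).
Atp6v0d1: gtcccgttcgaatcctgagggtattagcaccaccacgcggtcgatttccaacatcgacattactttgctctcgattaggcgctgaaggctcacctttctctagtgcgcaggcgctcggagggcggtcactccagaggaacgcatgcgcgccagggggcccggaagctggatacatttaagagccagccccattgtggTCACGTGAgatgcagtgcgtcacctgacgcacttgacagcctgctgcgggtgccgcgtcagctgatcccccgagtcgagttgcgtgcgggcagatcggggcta
Atp6v0e1: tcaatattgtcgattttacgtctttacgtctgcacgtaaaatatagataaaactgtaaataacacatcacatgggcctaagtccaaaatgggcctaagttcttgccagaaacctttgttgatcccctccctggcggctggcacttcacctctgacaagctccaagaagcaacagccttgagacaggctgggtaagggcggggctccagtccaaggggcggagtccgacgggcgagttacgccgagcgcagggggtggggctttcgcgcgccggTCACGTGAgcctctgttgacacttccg
Ctsd: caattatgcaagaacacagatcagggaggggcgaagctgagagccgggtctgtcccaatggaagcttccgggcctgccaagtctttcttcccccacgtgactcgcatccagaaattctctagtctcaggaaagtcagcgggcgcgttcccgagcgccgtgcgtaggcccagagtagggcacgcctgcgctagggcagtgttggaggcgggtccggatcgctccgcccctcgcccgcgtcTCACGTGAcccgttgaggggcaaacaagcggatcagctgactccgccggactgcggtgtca
Lamp1: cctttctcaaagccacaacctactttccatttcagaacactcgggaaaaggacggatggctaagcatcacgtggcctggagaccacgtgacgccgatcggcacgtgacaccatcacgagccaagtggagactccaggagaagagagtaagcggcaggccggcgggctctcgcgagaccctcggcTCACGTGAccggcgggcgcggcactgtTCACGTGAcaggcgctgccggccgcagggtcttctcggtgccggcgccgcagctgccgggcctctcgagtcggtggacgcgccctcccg
Mcoln1: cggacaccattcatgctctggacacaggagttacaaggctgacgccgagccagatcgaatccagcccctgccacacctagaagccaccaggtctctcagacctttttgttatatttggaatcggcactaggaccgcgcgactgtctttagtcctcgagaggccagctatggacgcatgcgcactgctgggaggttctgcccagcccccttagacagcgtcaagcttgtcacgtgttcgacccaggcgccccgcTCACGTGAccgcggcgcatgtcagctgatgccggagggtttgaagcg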

How the data were processed

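Transcript counts per gene for the 16 libraries were taken as deposited by the authors. Their processing notes name HISAT2 2.1.0 and featureCounts, whereas the methods of the paper name tophat2 and featureCounts, both on rn6. Reads were paired, 150 bases long, and multi-mapping reads were counted, so near-identical gene copies are uncertain, and how strand was used is not stated. Counts were analysed with edgeR 4.0.16 and DESeq2 1.42.0 in R 4.3.3. For edgeR, genes were kept by filterByExpr with a minimum count of 10 and scaled by TMM. DESeq2 took every gene with a count in the libraries compared, with its own size factors and its own filter on low counts. FPM were computed with the cpm function of edgeR, with TMM factors over all 16 libraries. Each pairwise comparison used the 8 libraries of its groups with the quasi-likelihood test of edgeR and the Wald test of DESeq2. Benjamini-Hochberg adjustment was made in each tool over its own set of genes. Genes counted as tested are those that passed the filter for edgeR. The interaction was tested in edgeR alone, over all 16 libraries, at an adjusted p below 0.01. The code was tested on simulated data. The members and lists were chosen with earlier results of these data known.

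Genes were named by rule: per class and line the 3 largest rises and the 3 largest falls among DEGs, the isoforms of pump subunits that have several, Tfeb, Tfe3 and Mitf, members that failed the filter, the 5 largest interactions in either direction, and per further list the 2 largest rises and 2 largest falls in either line. Members named outside this rule are stated as such. Atp6v1fnb was set apart from the V1 subunits afterwards. Genes of the further lists that are not in the table, Sgsh, Ctso, Hgsnat, Rragb and Fnip1 among them, were not analysed here. Alternatives were library totals, DESeq2 size factors, other filters, either tool alone, an adjusted p below 0.05, a test against a log2 change of 0.5, 1 fit of all libraries, the second number as a covariate, analyses within each second number and leaving out each library.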

Additional observations from a re-analysis of the deposited data

Results flagged for a closer look

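Only tested members named by the rule were checked here, in 156 groups of 4 libraries. In 6 of these groups 1 library lay far from the others, where chance gives about 1 in 20, or 7.8. These were Atp6v0b in N3 (231 FPM, others from 162 to 163 FPM), Tfeb in N3 (55.9 FPM, others from 46.1 to 46.8 FPM), Tfe3 in N8 (23.5 FPM, others from 52.3 to 54.9 FPM) and Neu1 in N8 (24.3 FPM, above the others), all in NRK-52E at pH 6.0. In NRK-52E at pH 7.4 they were Atp6v0a2 in N1 (37.7 FPM, others from 40.8 to 41.1 FPM) and Atp6v1c2 in N2 (4.06 FPM, others from 3.67 to 3.70 FPM). Atp6v1f, which was not among the genes checked, also had N8 apart in NRK-52E at pH 6.0 (57.9 FPM, others from 26.7 to 31.6 FPM). The cause was not tested.

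For 23 members the change with pH differed between the lines by the interaction test, with adjusted p below 0.01. Among them Ctss and Mitf are description only, because each passed the filter in NRK-52E through 1 group only. The log2 change in NRK-52E minus that in NRK-49F was above 0 for Ctsk (4.44), Ctss (3.09), Atp6v1d (1.97), Atp6v1g1 (1.28), Tfe3 (1.17), Atp6v0c (0.90), Tfeb (0.82), Atp6v0e1 (0.80), Atp6v0b (0.73), Cd63 (0.67), Npc2 (0.64), Atp6v0d1 (0.55) and Lamp1 (0.51). It was below 0 for Mitf (-3.56), Neu1 (-1.90), Gusb (-1.80), Gla (-1.51), Tpp1 (-1.11), Npc1 (-0.89), Lipa (-0.83), Psap (-0.76), Ctsb (-0.64) and Atp6ap1 (-0.54).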

How the results depend on the processing

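Leaving out 1 library at a time gave from 23 to 28 members as DEGs by pH in NRK-52E (12 to 14 higher, 10 to 15 lower), with 5 to 5 glycosidases lower, 4 to 4 V0 subunits higher and 16 to 19 other hydrolases lower. In NRK-49F it gave 18 to 24 members (9 to 15 higher, 9 to 10 lower) with 7 to 8 hydrolases higher. For the cell line it gave 26 to 29 at pH 7.4 (7 to 9 higher, 19 to 20 lower) and 29 to 35 at pH 6.0 (9 to 12 higher, 20 to 25 lower, hydrolases 12 to 14 and glycosidases 4 to 5 lower). For the interaction it gave 20 to 24 (7 to 14 upward, 10 to 14 downward, 2 to 4 V0 subunits upward), the 7 and the 2 without N3. Tested against a log2 change of 0.5, fewer passed because the test asks for more. In NRK-52E these were 14 members, 6 higher, with 2 V0 subunits higher and 11 other hydrolases lower, and in NRK-49F 8, of them 3 higher and 5 lower, with 2 hydrolases higher. The line difference kept 17 at pH 7.4, 3 of them higher, and 19 at pH 6.0, 5 higher and 14 lower. The interaction kept 11, of them 5 upward and 6 downward, with 1 V0 subunit. With 2 libraries per group, within number 21 of NRK-52E 15 were DEGs, 7 higher, and 2 V0 subunits, and within number 22 10 were, 6 higher and 4 lower, with 2 glycosidases, 2 V0 subunits and 9 other hydrolases. Within number 21 of NRK-49F 7 were, 4 higher and 3 lower, with 2 hydrolases. Under library totals 20 members were higher in NRK-52E at pH 7.4, and the interaction was upward for 6, with 1 V0 subunit, and downward for 17, with the shifts of the median given above. At an adjusted p below 0.05 it was downward for 16. Lamp2, Atp6v0d1 and Atp6ap1, near 0 between the lines at pH 7.4, became higher in NRK-52E under library totals (0.29, 0.25 and 0.27). Of the single-gene values over all alternatives, 895 of 977 for pH in NRK-52E, 859 of 959 in NRK-49F, 755 of 815 and 756 of 831 between the lines at pH 7.4 and 6.0, and 1021 of 1126 for the interaction kept direction and side of the threshold. Beyond what is stated, the cause was not tested. Ctss, Mitf, Atp6v1g2, Atp6v0a4 and Ctsz rest on few counts. In NRK-52E Ctss passed the filter only through its acid libraries, and Mitf only through its controls, as did Atp6v1g2 in both lines. The calls of these genes are included in the counts above as description only.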
